A study of Drosophila melanogaster with 8 samples.

Results

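The cuticle of a fly is a chitin scaffold filled with structural proteins, and the genes of those proteins form some of the largest families of the Drosophila genome. Genes were taken as cuticular protein genes where their symbol starts with Cpr and a number, Ccp84A, Lcp, Pcp, Acp65A, Edg or Twdl, and where a gene has several probe sets the one of highest mean over the 8 arrays stands for it. By this rule 105 of 11981 named genes were measured by a probe set of their own: 66 Cpr, 24 Twdl, 7 Lcp, 3 Ccp84A and 3 Edg genes, with Pcp and Acp65Aa. RefSeq holds 125 symbols that meet the rule, 3 of them pseudogenes. Of these, 7 genes appear only on probe sets listed for several genes, which are described apart below and not counted as members. Another 13, among them Lcp1 to Lcp4, are not listed for any probe set and were not analysed here.

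The arrays measured total RNA from heads of Canton-S flies, a standard wild-type stock, aged 3 to 5 days and kept for 4 days at 25 °C with 12 h of light and 12 h of darkness. In the pulsed group, 30 min of saturating light began at ZT 15 (zeitgeber time, counted in hours from the start of the light phase), when the flies had been dark for 3 h, and the flies were frozen 1 h after it, at ZT 16.5. The unpulsed group was labelled a control without a pulse at the same sampling time, and the comparison asks which head transcripts differ after light in the night. Each group has 4 arrays, the labels give neither the number nor the sex of the flies behind an array, and nothing in them says that replicates are separate batches of flies. A p here therefore reflects only how these samples vary, which may be technical. In whole heads, fewer cells of a type and less RNA per cell cannot be told apart.

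Cpr proteins carry the Rebers and Riddiford sequence, a stretch through which many of them bind chitin, and their symbols give the position on the polytene chromosome map. Tweedle (Twdl) proteins lack it and are known from dominant mutations that make the body short and stout. The names Lcp, Pcp and Acp65A stand for larval, pupal and adult cuticle proteins, and Edg for ecdysone-dependent genes found in imaginal discs. Most of these genes are known for brief bursts around a moult, and the adult fly keeps adding inner cuticle for some days after eclosion. In the head, the lens over each facet of the eye is itself a cuticle, in which Cpr72Ec, Cpr66D, crystallin (Crys) and retinin are known as major proteins.

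Signal from cuticular protein genes was rare in these heads. A mean log2 signal of at least 5 over the 8 arrays was found for 15 of 105 genes (14.3%), where 39.4% of the 18769 probe sets tested reached it. The files hold no detection calls, so this threshold was chosen here. It falls in a sparse stretch of the members' values: only Lcp65Ac (4.27) and Cpr47Ef (4.06) lay between 3.5 and 5, and Cpr49Ag (5.37) was the gene just above the threshold. The other 88 genes had means from 1.89 to 3.11, and no single array gave any of them more than 3.44. Over the 8 arrays those 88 genes moved little, with a median range of 0.062 log2 units and a largest range of 0.61. Probe sets respond unequally to their targets, so a value near this floor means that no signal was seen with that probe set, and levels are not ranked between genes.

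**Figure D1:**
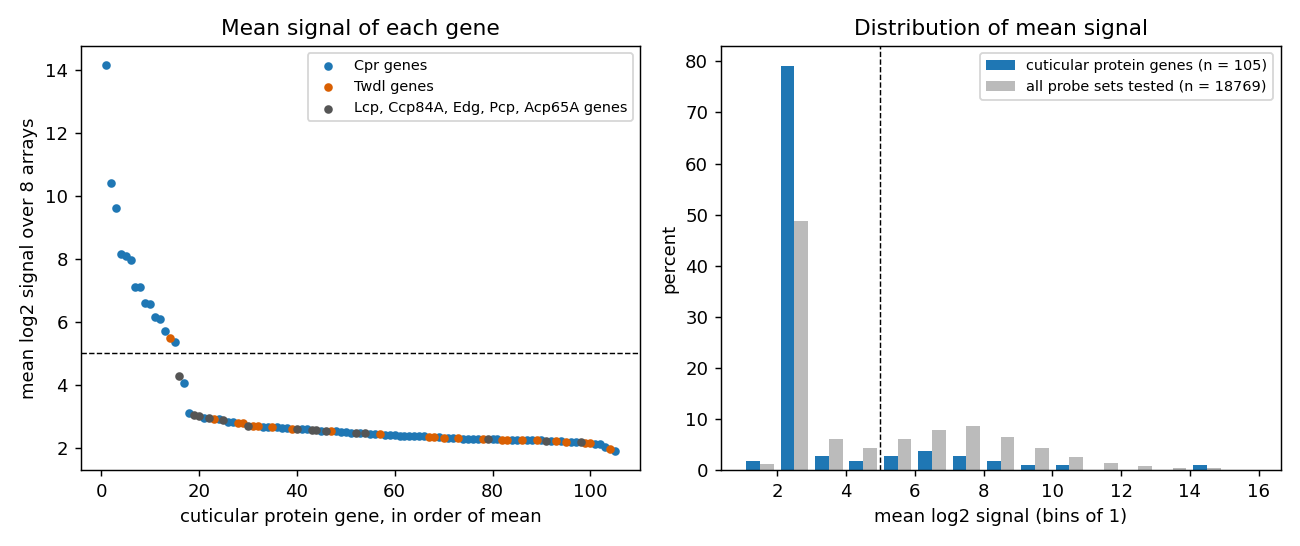
Left: mean log2 signal over the 8 arrays for each of the 105 cuticular protein genes, ordered by that mean and coloured by the start of the symbol, with the threshold of 5 as a dashed line. Right: percent of the 105 genes and of all 18769 probe sets tested in each bin of mean signal. A short slope of 15 genes lies above the threshold, and 88 genes form the flat stretch at 3.11 or less.

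Members that gave signal were counted by the start of their symbol. Among Cpr genes 14 of 66 did, with a median mean of 2.45 over all 66. Among Tweedle genes only TwdlG did, at a mean of 5.47, and the other 23 had means of 2.92 or less. The probe set shared by Lcp65Ag1 and Lcp65Ag2 had a mean of 7.87 and is not counted. None of the 7 Lcp, 3 Ccp84A or 3 Edg genes with a probe set of their own gave signal, and these groups are small. Their means reached 4.27 for Lcp65Ac, 2.93 for Ccp84Ag and 2.86 for Edg78E, the gene of a pupal cuticle protein. Pcp, a pupal cuticle protein gene, had a mean of 2.56. Acp65Aa, known as an adult cuticle protein gene, had 3.03, with values from 2.97 to 3.30 over the arrays. Counts at a threshold of 4 and of 6 were 17 and 12 of 105.

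As among all members, most measured genes in groups of neighbouring cuticular protein genes lay below the threshold. In the RefSeq gene order, members separated by at most 3 other genes formed 15 groups of 3 or more genes, which hold 92 of the 125 symbols. Of the 73 measured genes in these groups 8 had signal (11.0%, beside 14.3% of all members), in 7 of the 15 groups. In 6 of those 7 groups exactly 1 gene had signal on a probe set of its own. A further 7 groups had measured genes but none with signal, and the group from Lcp1 to Lcp4 had no measured gene. Cpr62Bb gave 7.11 between Cpr62Ba (2.40) and Cpr62Bc (2.58). Cpr76Bc gave 7.10 beside Cpr76Ba, Cpr76Bb and Cpr76Bd at 2.27 to 2.52. The largest group held 19 genes from Lcp65Ag3 to Cpr65Az, of which 11 were measured. In it Cpr65Au was at 14.16 and the other measured genes at 4.27 or less. The probe set shared by its genes Lcp65Ag1 and Lcp65Ag2 had a mean of 7.87 and is not counted here. The group from Cpr49Aa to Cpr49Ah held both Cpr49Ae (8.08) and Cpr49Ag (5.37), with the 6 others at 2.66 or less. No gene had signal in the group of 13 Tweedle genes from TwdlM to TwdlQ, of which 12 were measured, or among the 4 measured genes of the group from Edg84A to Ccp84Aa.

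**Figure D2:**
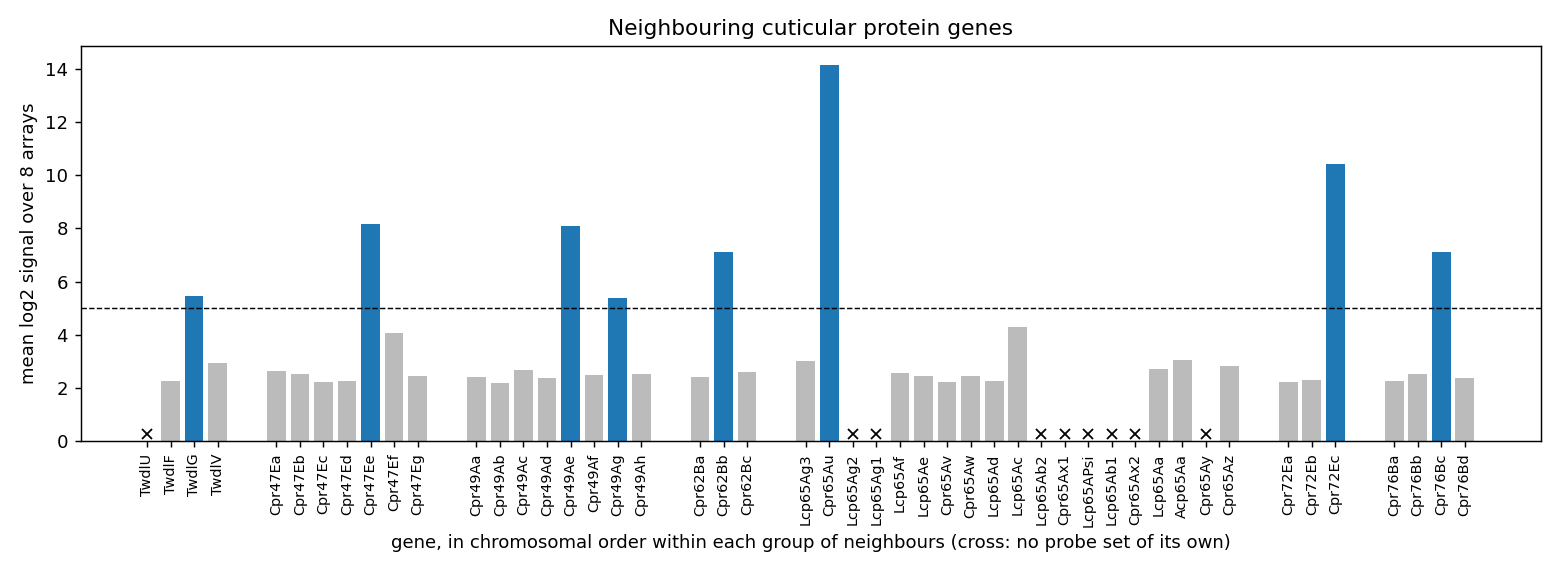
Mean log2 signal over the 8 arrays (bars) for the 7 groups of neighbouring cuticular protein genes in which a member had signal, in chromosomal order within each group. Blue bars reach the threshold of 5 (dashed line), grey bars do not, and a cross marks a gene without a probe set of its own. In 6 of the 7 groups a single blue bar stands among grey ones. Shared probe sets, such as that of Lcp65Ag1 and Lcp65Ag2 at 7.87, are not drawn.

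Some probe sets are listed for several genes, and their values belong to no gene alone. The probe set shared by Lcp65Ag1 and Lcp65Ag2, neighbours of Cpr65Au, had a mean of 7.87. Its pulsed arrays gave 7.76, 7.88, 8.14 and 7.92, and its unpulsed arrays 7.99, 7.96, 7.20 and 8.10. Unpulsed replicate 3 was the low one and the groups overlapped. The copies cannot be separated there. Of the probe sets shared by Cpr57A with the odorant-binding protein gene Obp57d, 1 had a mean of 7.59 and the other of 3.17. The shared probe sets of Ccp84Aa with Ccp84Ab, Cpr65Ax1 with Cpr65Ax2 and Cpr67Fa1 with Cpr67Fa2 lay at 2.24 to 2.86.

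Light at night left no cuticular protein gene past the test. With limma, 0 of 105 members passed an adjusted p of 0.05, as did 0% of all probe sets tested, and the smallest adjusted p of a member was 0.933. An unadjusted p under 0.05 was found for 3 of 105 members, against 4.81% of all probe sets tested. Of the 3, 1 was higher (2.4% of all probe sets) and 2 were lower (2.41%) in pulsed heads, and 2 of the 3 were among the 15 genes with signal, where 10.4% of probe sets with signal had such a p. The groups did not overlap for 2 members, where 2.56% of all probe sets did so. Of the 15 genes with signal 6 had a higher and 9 a lower mean in pulsed heads (49.2% of probe sets with signal had a higher one), with a median log2 difference of -0.028 beside -0.0020 over the 7401 probe sets that reached the same signal. That median was 0.085 without pulsed replicate 4, so it has no settled sign. Array weights gave the members' only calls, 8 of 105 beside 15.6% of all probe sets, in a fit that leaned on 2 arrays.

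The 3 genes with an unadjusted p under 0.05 were Cpr62Bb, Cpr11B and Lcp65Ac, the last named after its values were seen. For Cpr62Bb the pulsed arrays gave 7.36, 7.31, 7.18 and 7.12 and the unpulsed arrays 6.78, 7.01, 7.03 and 7.11. All pulsed values were above all unpulsed ones, the closest pair by only 7.116 against 7.107. The means were 7.24 ± 0.11 and 6.98 ± 0.14 (SD, n = 4 each), a log2 difference of 0.26 (SE 0.084, 1.20-fold, 95% interval 0.062 to 0.46), with a limma p of 0.0173 that became 0.933 after adjustment.

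Cpr11B, a Cpr gene with no close member as neighbour, had pulsed values of 6.64, 6.39, 6.44 and 6.30 and unpulsed values of 6.86, 6.69, 6.73 and 6.52. The pulsed arrays tended to be low, but pulsed replicate 1 overlapped the unpulsed range. The log2 difference was -0.26 (SE 0.093, 95% interval -0.48 to -0.039), with a limma p of 0.0271 and an adjusted p of 0.965. Without unpulsed replicate 3 the unadjusted limma p was 0.0607 for Cpr11B and 0.0288 for Cpr62Bb. Lcp65Ac, a larval cuticle protein gene below the signal threshold, had 4.25, 4.15, 4.24 and 4.14 on pulsed arrays and 4.47, 4.41, 4.27 and 4.26 on unpulsed ones. All its pulsed values were lower, by a log2 difference of -0.16 (SE 0.057, limma adjusted p = 0.965).

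The largest differences in means belonged to genes in which a single array stood apart. Cpr49Ag, the neighbour of Cpr49Ae, gave 4.94, 5.18, 5.33 and 4.97 on pulsed arrays and 5.42, 4.95, 6.64 and 5.52 on unpulsed ones. Unpulsed replicate 3 was high and the remaining unpulsed values lay among or close to the pulsed ones. The log2 difference was -0.53 (SE 0.34, 95% interval -1.34 to 0.28) with all arrays and -0.19 without that array.

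Cpr72Ec, the corneal lens protein gene, gave 10.21, 10.31, 10.43 and 9.93 on pulsed arrays and 10.29, 10.07, 11.51 and 10.50 on unpulsed ones. Here too unpulsed replicate 3 was the high one, 3.00-fold above the lowest array, and the rest of the values were mixed. The log2 difference was -0.37 (SE 0.31, 95% interval -1.11 to 0.36), and -0.068 without that array. Retinin, the other lens protein gene with signal, which is no member of the Cpr family, had means of 14.01 ± 0.058 and 14.07 ± 0.069 and was at 14.12 on unpulsed replicate 3. Cpr66D, likewise known from the lens, was between 2.35 and 2.46 on every array. Of the 4 lens genes 3 were measured, and Crys had no probe set of its own.

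Cpr76Bc gave 7.54, 7.28, 7.22 and 7.12 on pulsed arrays and 7.05, 7.18, 6.25 and 7.17 on unpulsed ones. In this gene unpulsed replicate 3 was low, and without it the log2 difference of 0.38 (SE 0.22) became 0.16. TwdlG, the Tweedle gene with signal, gave 5.46, 5.54, 5.78 and 5.34 against 5.60, 5.61, 4.72 and 5.72. The same array was low again, the groups overlapped, and the log2 difference of 0.12 (SE 0.23) was -0.11 without it. Cpr73D behaved alike, with 6.20 on that array and 6.46 to 6.75 on the others, and its difference of 0.082 (SE 0.12) was -0.031 without it.

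**Figure D3:**
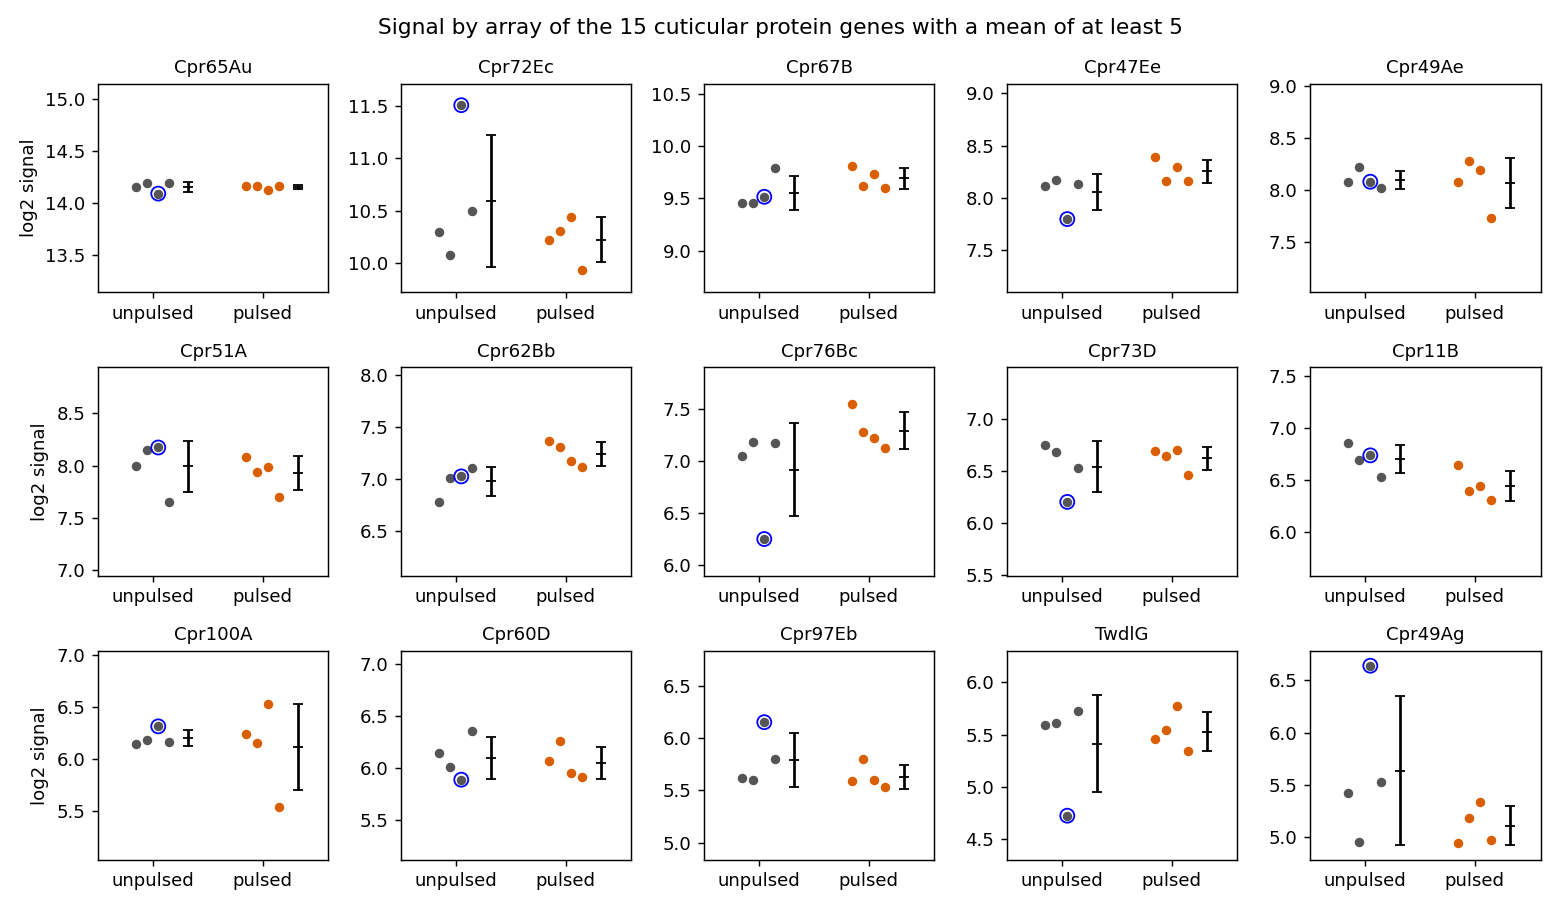
Log2 signal of the 15 cuticular protein genes with a mean of at least 5, on unpulsed (grey) and pulsed (orange) arrays, with replicates 1 to 4 from left to right, and the mean with SD bars (n = 4) beside each group. Panels share no axis range, but each spans at least 2 log2 units. Unpulsed replicate 3, circled in blue, lies apart in Cpr72Ec and Cpr49Ag (high) and in Cpr76Bc and TwdlG (low).

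Other genes with signal overlapped between the groups. Cpr47Ee had 8.39, 8.16, 8.29 and 8.16 in pulsed and 8.11, 8.17, 7.79 and 8.13 in unpulsed heads, a log2 difference of 0.20 (SE 0.097, 0.11 without unpulsed replicate 3). Cpr67B had 9.81, 9.62, 9.74 and 9.60 against 9.46, 9.45, 9.52 and 9.79, a difference of 0.14 (SE 0.088, 0.22 without unpulsed replicate 4). Leaving out unpulsed replicate 3 made the difference of Cpr47Ee smaller, and leaving out unpulsed replicate 4 made that of Cpr67B larger. Without unpulsed replicate 3 the difference of Cpr67B was 0.12. Cpr97Eb had 5.59, 5.80, 5.60 and 5.53 against 5.62, 5.60, 6.16 and 5.80, a difference of -0.16 (SE 0.13), which was -0.040 without unpulsed replicate 3.

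Cpr65Au had the smallest spread of the 15 genes with signal, with all 8 arrays between 14.09 and 14.19. Its log2 difference was -0.00018 (SE 0.025), and the 95% interval of -0.060 to 0.060 bounds any difference more tightly than for any other gene with signal. Its signal is near the top of the scale, where the highest value on any array was 15.51, so a change could be compressed there, and this was not tested. Cpr100A had 6.24, 6.15, 6.52 and 5.54 in pulsed heads and 6.14 to 6.31 in unpulsed ones. Pulsed replicate 4 was the low array, and the difference of -0.086 (SE 0.20) was 0.11 without it. Cpr49Ae, Cpr51A and Cpr60D had log2 differences of -0.028, -0.066 and -0.050, each with an SE between 0.12 and 0.14.

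For 10 of the 15 genes the 95% interval lay within 0.5 log2 units of 0. For the other 5, Cpr72Ec, Cpr76Bc, Cpr100A, TwdlG and Cpr49Ag, it reached past that bound, so differences of that size could not have been told from the spread between arrays.

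**Figure D4:**
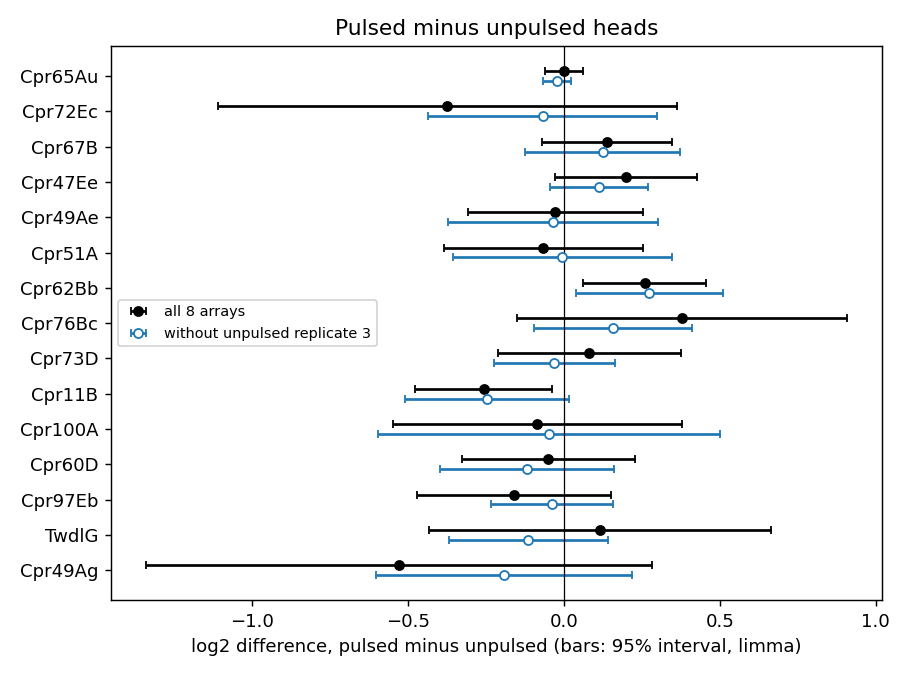
Log2 difference, pulsed minus unpulsed, of the 15 cuticular protein genes with signal, with 95% intervals from limma. Black points use all 8 arrays and open blue points leave out unpulsed replicate 3. With all arrays the intervals of Cpr62Bb and Cpr11B exclude 0 before adjustment, and those of Cpr72Ec and Cpr49Ag are the widest and narrow without that array.

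The spread between arrays was wide for these genes. The pooled SD within groups had a median of 0.19 over the 15 genes and 0.14 over all 7401 probe sets with signal, and 11 of the 15 were above the latter. Cpr49Ag had an SD of 0.52, more than 99.2% of probe sets with signal, Cpr72Ec 0.47 (98.9%), TwdlG 0.35 (96.3%) and Cpr76Bc 0.34 (95.9%). Cpr100A followed at 0.30 (93.3%), where pulsed replicate 4 stood apart. At the other end Cpr65Au had 0.036, more than only 0.716%. The 4 genes with the widest spread share unpulsed replicate 3 as their extreme array. Without it their SDs were 0.24 for Cpr49Ag, 0.21 for Cpr72Ec, 0.15 for TwdlG and 0.15 for Cpr76Bc. Leaving out the extreme array of genes picked for a wide spread was bound to lower their SDs. Over all 15 genes, 11 were above the median of probe sets with signal without that array too.

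Unpulsed replicate 3 was the highest or the lowest of the 8 arrays for 10 of the 15 genes, against 43.1% of the probe sets with signal. It was highest for Cpr72Ec, Cpr51A, Cpr97Eb and Cpr49Ag and lowest for Cpr65Au, Cpr47Ee, Cpr76Bc, Cpr73D, Cpr60D and TwdlG. Its median absolute deviation from the mean of the 8 arrays was 0.21 over the members and 0.13 over all probe sets with signal, the largest of any array in both. As it lay above for some members and below for others, its median deviation was only -0.064. Pulsed replicate 4 was lowest for 5 of the 15 (Cpr72Ec, Cpr49Ae, Cpr11B, Cpr100A and Cpr97Eb) and highest for none, with a median deviation of -0.16 beside -0.051 over all probe sets with signal.

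**Figure D5:**
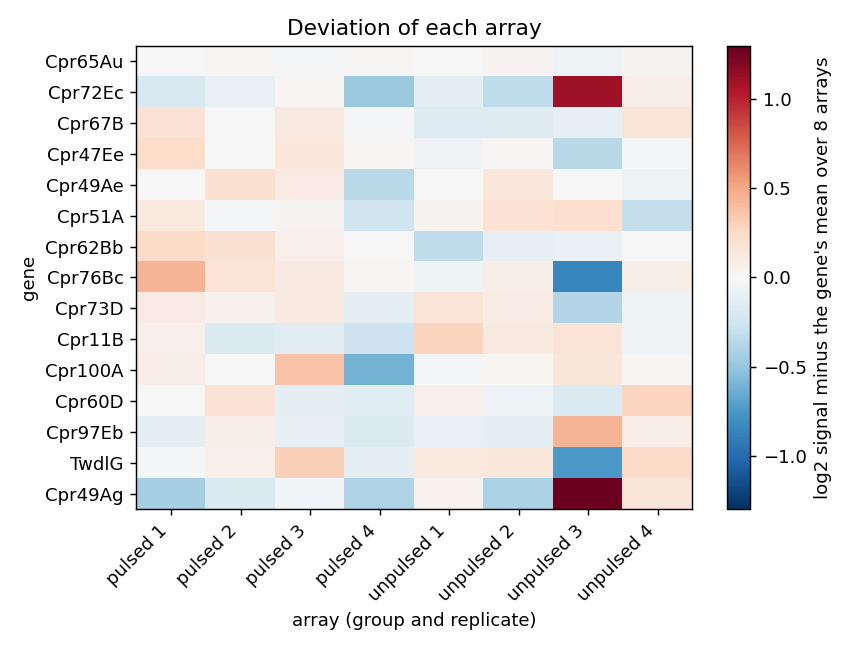
Log2 signal of each of the 15 genes on each array minus that gene's mean over the 8 arrays (red above, blue below). The column of unpulsed replicate 3 runs from -0.85 for Cpr76Bc to 1.27 for Cpr49Ag, and that of pulsed replicate 4 is pale or blue throughout.

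Markers of other tissues stood apart on single arrays. Oenocytes are cells under the cuticle that make its hydrocarbons, and of their 5 markers, all measured, the mean signal ran from 5.37 to 6.77 on pulsed and from 4.87 to 5.69 on unpulsed arrays. The lowest mean was on unpulsed replicate 3 and came from Cyp4g1, the oenocyte gene of hydrocarbon synthesis. Cyp4g1 was at 3.44 there against 5.77 to 11.67 elsewhere, with the highest value on pulsed replicate 2. Desat1, the other oenocyte marker with signal, was at 14.02 on unpulsed replicate 3 and at 13.80 to 14.23 elsewhere. FASN3 was above the floor only on pulsed replicate 2 (3.99), and 2 of the 5, among them eloF, stayed under 3.5 on all arrays. Epidermis and trachea markers (6 of 6 measured) had means of 5.17 to 5.38 and 5.31 to 5.43, with the chitin synthase gene kkv near the floor at 2.47 to 2.54. On pulsed replicate 2 the male accessory gland markers (12 of 12 measured) had a mean of 7.33 against 2.63 to 2.74 on all other arrays, and midgut markers (9 of 10) 5.29 against 2.58 to 2.67. Pulsed replicate 2 was the highest or lowest array for 1 of the 15 genes, Cpr49Ae, against 28.3% of probe sets with signal. Among the 90 members below the threshold it was lowest for 39 and highest for 3. The part of these markers in the members' values was not tested.

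Further markers covered fat body, eye, nerve and muscle. Fat body and yolk markers (6 of 7 measured) had means of 7.56 to 10.82 on pulsed and 7.40 to 10.92 on unpulsed arrays. The low means, on pulsed replicates 3 and 4 and unpulsed replicate 1, came from the yolk genes Yp1, Yp2 and Yp3. On those arrays Yp1 was at 4.82 to 5.21, against 11.34 to 12.68 elsewhere. Lsp2 was at 14.80 to 14.88 there and was lowest on unpulsed replicate 3 (13.86, the others 14.69 to 14.95). The values of fit ran from 11.75 to 12.46, and Fbp1 was near the floor. Photoreceptor markers (2 of 5) lay at 11.83 to 12.03 and 11.78 to 12.04, neuron markers (3 of 4) at 7.39 to 7.69 and 7.35 to 7.77, and glia markers (3 of 4) at 9.47 to 9.62 and 9.48 to 9.56. Muscle markers (3 of 5) lay at 6.56 to 7.18 and 6.84 to 7.32, hemocyte markers (4 of 4) at 6.87 to 7.22 and 6.98 to 7.19, and chorion markers (5 of 6), all under 3.5, at 2.26 to 2.31 and 2.27 to 2.34. The 3′ minus 5′ log2 difference of 3 control genes is a sign of RNA integrity. It was 0.86 ± 0.062 in pulsed and 1.03 ± 0.054 in unpulsed heads for GAPDH (SD, n = 4 each), without overlap. For actin it was 1.23 ± 0.15 and 1.35 ± 0.17, and for eIF-4a 2.96 ± 0.17 and 3.28 ± 0.15, and both overlapped between the groups. On unpulsed replicate 3 the actin value was the highest of the 8 arrays (1.58, the others 1.00 to 1.39). For GAPDH and eIF-4a that array had 1.06 and 3.39, below unpulsed replicate 2 (1.09 and 3.42). The part of these controls and markers in the members' differences and spread was not tested. Array medians lay between 2.95 and 3.07.

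The genes that make, cut and harden the cuticle also had 0 calls by limma in each list in either direction. An unadjusted limma p under 0.05 was found for knk, 1 of 14 measured genes of its list, and yellow-h, 1 of 21. No gene of the other cuticle lists had one, and 4.81% of all probe sets tested did. Chitin synthesis and assembly had 14 of 20 genes measured, 6 of them with signal and a median log2 difference of 0.00049 over the 14. Its strongest statistic belonged to knk, which guards and orders new chitin, with means of 3.95 ± 0.11 in pulsed and 4.22 ± 0.22 in unpulsed heads (log2 difference -0.28, limma adjusted p = 0.9999). The signal of knk is under the threshold.

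Chitinases and the related imaginal disc growth factors had 17 of 18 measured, 8 with signal and a median of 0.0059. Those with signal were Idgf1 to Idgf6, Hexo2 and Cht5. Cht5, the only Cht gene among them, had a mean of 5.00, at the threshold. Idgf6 had the largest statistic of the list, at 13.12 ± 0.041 and 12.96 ± 0.20, with its lowest value of 12.68 on unpulsed replicate 3. Sclerotisation and pigmentation genes had 21 of 24 measured, 12 with signal and a median of -0.0060. yellow-h, of the Yellow protein family, was at 8.53 ± 0.099 in pulsed and 8.78 ± 0.17 in unpulsed heads (limma adjusted p = 0.965), and Pu, which starts the synthesis of the cofactor for tyrosine hydroxylation, at 9.92 ± 0.15 and 10.08 ± 0.072.

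Other cuticle proteins had 21 of 25 measured, 7 with signal and a median of -0.0058, with none at an unadjusted p under 0.05. Tb, the gene of a Tweedle protein that the symbol rule leaves out, was at the floor with 2.31 to 2.36. The lists hold few genes and their medians stand beside -0.0031 for all probe sets tested.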

How the data were processed

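The deposited table gives a log2 value for each probe set on each array, a scale inferred from the range of 1.36 to 15.51. Per the labels' protocols, RNA was extracted with Trizol and labelled with an Affymetrix in vitro transcription kit. Probe summary, background correction and normalization are not given in the sources used here, and the deposited values were used unchanged. Of 18952 probe sets, 183 controls were left out. The platform annotation gives 1 symbol for 13647, several for 402, and does not list 4903. Symbols were updated by gene number through NCBI RefSeq (Release 6 plus ISO1 MT), used for names and gene order only, and probe sets with several symbols name no gene.

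Groups came from the labels. Pulsed and unpulsed arrays (4 each) entered a fit in R 4.3.3 with limma 3.58.1 (lmFit, eBayes, two-sided, Benjamini-Hochberg over all 18769 probe sets, dim ones kept), and the fit was tested on simulated data. No arrays held identical values. Arrays give no count depth, and their number limits the precision. Members, lists and tests were chosen with earlier results of these data known. Named genes are the 12 members with the highest mean, the 6 highest and 6 lowest statistics and 6 largest SDs among members with signal, lens genes, Acp65Aa, Pcp, Edg genes and up to 3 genes of each other cuticle list with the smallest p.
Alternatives were median-centred arrays, quantile normalization, a filter at the 40th percentile of mean value, a pseudocount of 16, array weights, a trended and robust spread, a replicate block, each array left out, a yolk protein covariate, averaging the probe sets of a gene, an adjusted p of 0.1 and signal thresholds of 4 and 6. Leaving out pulsed replicate 2 with unpulsed replicate 3 was added after seeing the data.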

Additional observations from a re-analysis of the deposited data

Results flagged for a closer look

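In a group of 4 arrays, an array was singled out where its gap to the nearest other array took up more of the group's whole range than Dixon's 95% critical value allows. Among 68 groups (34 named genes), 12 had such an array. Chance alone gives about 1 in 20 independent groups. That rate is no measure for these groups, as some genes were named for a large SD or statistic and all share the same 8 arrays. Genes near the floor can be flagged by very small gaps. Unpulsed replicate 3 accounted for 4 of the 12. It was low for Cpr47Ee (7.79, the others 8.11 to 8.17), Cpr76Bc (6.25, the others 7.05 to 7.18) and TwdlG (4.72, the others 5.60 to 5.72), and high for Pu (10.18, the others 10.03 to 10.05).

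Pulsed replicate 2 was high for Edg91 (2.98, the others 2.54 to 2.55) and low for Edg78E (2.81, the others 2.86 to 2.87) and Edg84A (2.20, the others 2.23). Over the 88 members below 3.5, the same array had the lowest median deviation of all arrays (-0.021). Pulsed replicate 3 was high for Acp65Aa (3.30, the others 2.97 to 2.99) and low for Cht2 (4.21, the others 4.57 to 4.61). Unpulsed replicate 1 was high for Pcp (2.91, the others 2.50 to 2.57). Pulsed replicate 1 was high for Idgf4 (12.51, the others 12.38 to 12.39), and pulsed replicate 4 was low for Vajk1 (2.83, the others 2.91 to 2.92).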

How the results depend on the processing

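The count of 15 genes with signal lay between 12 and 17 under the alternatives run, and the count of 11 with an SD above the median between 9 and 12. The 0 calls among members and among cuticle lists stayed at 0 under every alternative but array weights, which gave 8 and 11 calls, 29 members at an unadjusted p of 0.05 and a median difference of 0.065. In that fit Cpr72Ec (0.21) and Cpr49Ag (0.20) changed sign and were not called, and 8 of 34 named genes were. The weights ranged from 0.20 on unpulsed replicate 3 to 10.1 on unpulsed replicate 2, and 15.6% of all probe sets were called. Leaving out each array in turn gave 1 to 4 members at an unadjusted p of 0.05 (3 with all arrays, and 1 without pulsed replicate 2 or 4 or unpulsed replicate 1 or 2) and a median difference from -0.069 to 0.085. Without pulsed replicate 2 and unpulsed replicate 3 together, 1 member was left at that p, and it was below the signal threshold. The median was then -0.061. With the replicate number as a block there were 0 calls and 2 members at an unadjusted p of 0.05. Samples with the same number did not deviate together (correlations of -0.19 to -0.0016), so the numbers were not taken as pairs. Named genes with a difference smaller than its SE were given no direction to reverse. The cause of these changes was not tested. The arrays give no measure of signal over background beyond the floor near 2 to 3 log2 units.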
